A study of Mus musculus with 80 samples.

Results

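Trimethylation of lysine 27 on histone H3 (H3K27me3) in uterine fibroblasts of non-pregnant mice given progesterone, called P4 here, was set against that of mated mice on gestation day 0.5 (GD0.5). The comparison holds 6 of the 80 samples of the series, 3 on each side, and rests on 2 of its 16 peak lists, since peaks were called on the 3 samples of each group together. All were B6CBAF1/J females, F1 hybrids of the C57BL/6J and CBA/J strains with no engineered allele. The P4 females had received the hormone for 3 days before they were killed, and the GD0.5 females had been mated with B6 males. Fibroblasts were purified on magnetic beads from digested uterus and profiled by CUT&RUN, which sends a nuclease to marked chromatin with an antibody. Lists of the same strain at GD5.5, from tissue between implantation sites after natural mating and from uterus after mating with a vasectomized male, are given beside the pair as values; they were not compared with it, because they would share the GD0.5 list. Progesterone treatment and mating or cycle stage cannot be told apart here, since no list of untreated non-pregnant females was used. Hormone dose and route are not given in the sources used here.

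H3K27me3 is laid down by Polycomb repressive complex 2, whose catalytic subunit is Ezh2 or Ezh1, and is removed by the demethylases Kdm6a and Kdm6b. It covers silent genes, above all developmental regulators with CpG-rich promoters, and can spread over long stretches of chromatin. Progesterone acts through the nuclear receptor Pgr, restrains the oestrogen response of the uterus and prepares its stroma for implantation. GD0.5 follows ovulation, before the new corpora lutea secrete much of the hormone.

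With one list a side there is no replicate error, and no difference below has a test. Coverage means the percent of a gene's span with 2 kb on either side, or of a 10-kb bin, that lay inside peaks. A gene or bin is called gained where P4 coverage exceeded GD0.5 coverage by at least 50 percentage points, and lost where it fell short by at least 50 points.

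The mark occupied nearly the same extent of the genome on both sides. The P4 list held 131900 peaks over 680.5 Mb, and the GD0.5 list 167542 peaks over 704.4 Mb. P4 peaks were fewer and wider: the mean width was 5159 bp in P4 and 4204 bp in GD0.5, and peaks over 20 kb added up to 310.4 Mb in P4 and 260.7 Mb in GD0.5. Of the P4 peaks 76.7% overlapped a GD0.5 peak by at least 1 bp, and of the GD0.5 peaks 64.9% overlapped a P4 peak. The 548.9 Mb covered in both lists made up 80.7% of the P4 length and 77.9% of the GD0.5 length. Peaks without a partner were narrow, with a median width of 837 bp in P4 and 868 bp in GD0.5, against 2201 bp and 2331 bp for those with one. Most peaks of either list were weak, with a median fold over background of 1.09 in both, by the authors' values, and a median −log10 p of 0.596 in P4 and 0.577 in GD0.5. Strong peaks, those with a −log10 q of at least 2, went the other way in extent, with 1465 peaks over 36.4 Mb in P4 and 982 peaks over 20.7 Mb in GD0.5. The q cutoff did not fall at the same fold or p in both lists, so these extents are not at like strength. It was looser in P4, where a peak with a −log10 p of 3.535 passed, while a GD0.5 peak at 3.669 did not. All 1465 strong P4 peaks overlapped some GD0.5 peak, and 976 of the 982 strong GD0.5 peaks overlapped some P4 peak.

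Among 263121 bins of 10 kb, 75.7% differed by at most 10 points. Gained bins numbered 3294 (1.25%) and lost bins 3641 (1.38%). In the gained bins mean coverage was 82.1% in P4, 59.9% in natural GD5.5, 66.0% in vasectomized GD5.5 and 15.4% in GD0.5. In the lost bins it was 12.02% in P4, 36.2% and 30.7% in the natural and vasectomized GD5.5 lists, and 75.2% in GD0.5. The P4 and GD0.5 means of these bins follow from how the bins were chosen, whereas the GD5.5 lists had no part in the choice. Bins chosen for opposite extremes tend to place any further list in between, so no conclusion is drawn from where the GD5.5 means fall. Weak peaks made up most of the changed bins: 32 of 5716 P4 peaks in gained bins and 7 of 8444 GD0.5 peaks in lost bins were strong. Of the gained bins 36.9% adjoined a bin at least 50% covered in both lists, of the lost bins 30.8%, and of all bins 32.1%. The share of all bins includes the 59685 bins so covered themselves, of which 92.7% adjoined another. It is therefore too high to serve as a background for the changed bins. On the X chromosome mean coverage was 59.7% in P4 and 58.4% in GD0.5, while over the autosomes it was 23.5% and 24.6%. The autosome with the widest gap was chromosome 16, at 21.1% in P4 and 24.0% in GD0.5, with 77 bins gained and 196 lost.

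**Figure D1:**
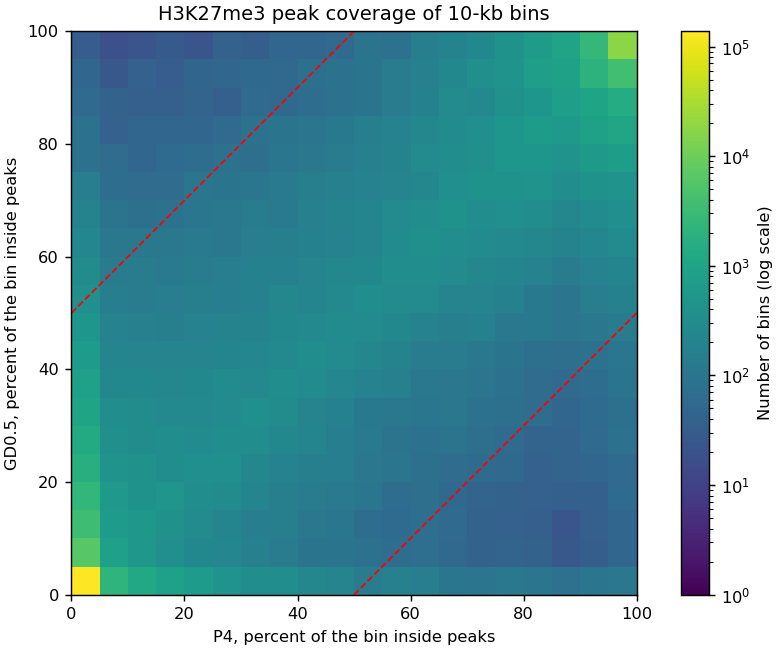
Percent of each 10-kb bin inside peaks in P4 (horizontal) and GD0.5 (vertical), counted in 5-point squares with a logarithmic colour scale. The dashed lines mark differences of 50 points, beyond which lie 3294 gained bins at the lower right and 3641 lost bins at the upper left; most bins sit near both corners of the diagonal.

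Fibroblast genes were among the least covered marker genes on both sides. Fibroblast markers averaged 2.12% coverage in P4 and 4.97% in GD0.5 over 18 genes, and 13 of them, among them the collagens Col1a1, Col1a2 and Col3a1 and the proteoglycan genes Dcn and Lum, lay at 0 in both. Markers of several other cell types were covered far more: epithelial genes at 75.0% in P4 and 73.2% in GD0.5, immune genes at 58.3% and 58.5%, endothelial genes at 51.4% and 49.1%. Smooth muscle markers lay in between: they averaged 22.3% in P4 and 11.99% in GD0.5, and 9 of 18 lay at 0 in both. Marker coverage therefore sets fibroblasts apart from smooth muscle cells less clearly than from those other cell types. Broadly active genes lay at 4.96% in P4 and 3.78% in GD0.5. Over all 21631 protein-coding genes the mean was 23.6% in P4 and 23.8% in GD0.5, with a median difference of 0. Within 1 kb of the start fibroblast markers differed more, at 8.15% in P4 and 23.9% in GD0.5 over the 12 with a placed start. That difference of -15.8 points was the largest negative one around the start among the 21 gene lists. Around the start 3 of the 12 were lost at 25 points, beside 921 of 17274 over all genes.

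At the gene level 87 genes were gained (0.402% of those measured) and 143 were lost (0.661%). At 25 points the counts were 499 gained (2.31%) and 635 lost (2.94%). Gained genes had a median span of 8.49 kb, lost genes 1.14 kb and all genes 17.3 kb. Of the lost genes 69 encode olfactory, vomeronasal or bitter taste receptors, against 1 of the gained genes. Leaving these out, lost genes still had a shorter median span, 4.51 kb, than the gained genes at 8.56 kb. Which direction prevailed depended on the peaks counted. For equal covered length, the peaks of each list were kept from the highest −log10 p downward until they covered 544.4 Mb. At that length 165 genes were gained and 196 lost. With strong peaks alone 230 were gained and 40 lost, under a q cutoff that was looser in P4.

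The 15 largest gains of genes that, with flanks, span at least 20 kb held genes of many kinds. Cd101, which encodes an immunoglobulin-like membrane protein of leukocytes (chr3:100992189-101029553), had the largest of these differences, at 92.7% in P4, 76.6% in natural GD5.5, 67.0% in vasectomized GD5.5 and 8.38% in GD0.5. Strong P4 peaks covered 19.5% of it, and strong GD0.5 peaks 0%. Mical2, a monooxygenase that oxidizes actin filaments, followed at 75.9% in P4, 33.9% and 41.02% in the GD5.5 lists and 1.53% in GD0.5. Spint2, a Kunitz-type serine protease inhibitor of epithelia, was covered at 96.0% in P4, 95.8% and 88.4% at GD5.5 and 24.6% in GD0.5. Arhgef19, a guanine nucleotide exchange factor gene, stood at 65.1% in P4 and 4.14% in GD0.5, and the transporter gene Abcc3 at 79.8% and 15.9%. The ubiquitin ligase gene Trim6, the Src-like adaptor gene Sla, the APC paralogue Apc2, Ghrh for growth hormone-releasing hormone, Nptxr for the neuronal pentraxin receptor, Siah3, Jade2, the acyl-CoA synthetase gene Acsbg2 and the muscle gene Lmod1 were the others described here. Over the 14 genes named, P4 coverage ran from 65.1% to 96.0% and GD0.5 coverage from 1.53% to 34.6%. Apart from Cd101, strong peaks of either list covered none of them.

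**Figure D2:**
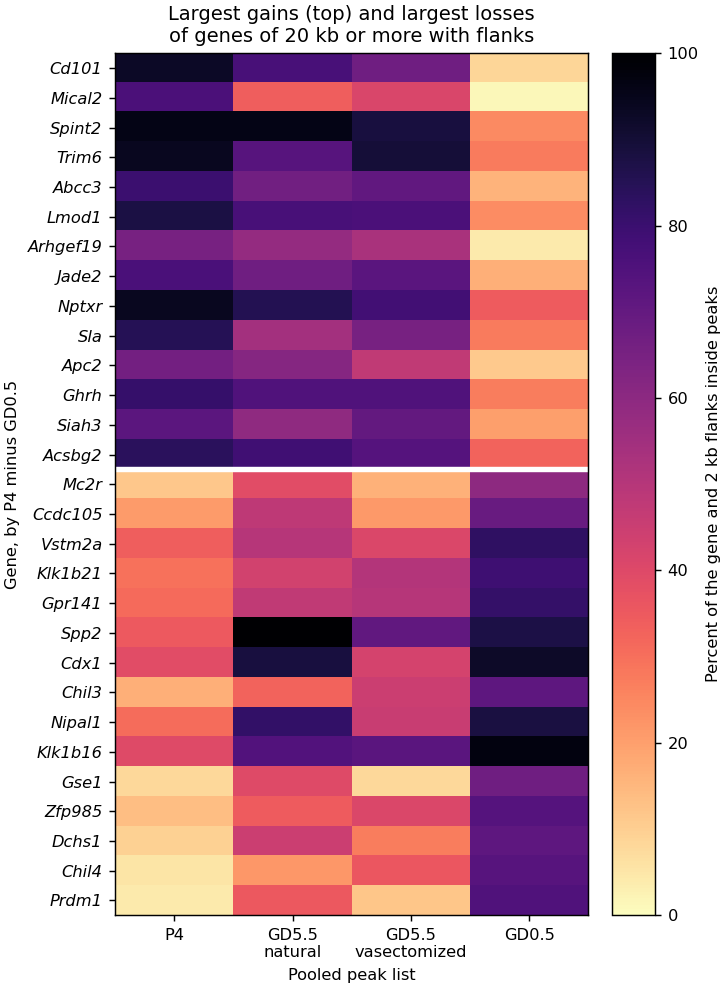
Coverage (colour, percent of the gene and its flanks inside peaks) of 14 of the 15 largest gains above the white line and the 15 largest losses below it, in the lists of P4, GD5.5 after natural mating, GD5.5 after vasectomized mating and GD0.5 from left to right. The gains lie at 65.1% or more in P4 and 34.6% or less in GD0.5, and the losses at 39.8% or less in P4 and 59.5% or more in GD0.5.

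Smooth muscle genes showed the largest positive difference in mean among the 21 gene lists, at 22.3% in P4, 20.8% in both GD5.5 lists and 11.99% in GD0.5 over 18 genes. Most of it lay in the 2 genes gained at 50 points, beside 0.402% of all genes, and 9 of the 18 were at 0 in both lists. Acta2, which encodes smooth muscle actin (chr19:34240336-34255585), was at 63.1% in P4, 55.5% in natural GD5.5, 63.4% in vasectomized GD5.5 and 0% in GD0.5. Lmod1, the actin nucleator leiomodin 1 (chr1:135324813-135368065), was at 87.6% in P4, 76.8% and 76.0% at GD5.5 and 24.0% in GD0.5. Both differences were at least as large at equal covered length, and no strong peak lay in either gene. Actg2, the enteric smooth muscle actin gene, stood at 95.0% in P4 and 71.1% in GD0.5, and Cnn1 for calponin at 56.6% and 42.3%. Myocd, the cofactor that drives the smooth muscle programme, differed little, at 78.7% in P4 and 72.3% in GD0.5. Tagln, Des and Smtn lay at 0 in both. Peaks report the share of marked chromatin over all cells of a preparation, so fewer marked cells and less mark per cell cannot be told apart. Whether the share of muscle cells in the preparations bears on these values was not tested; the other muscle markers beside Acta2, Lmod1, Actg2 and Cnn1 differed by at most 11.5 points.

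The promoters of 2 genes that lay wholly inside peaks in P4 and wholly outside them in GD0.5 are shown, to let a reader see what kind of sequence was gained. They belong to Lmod1 and to Paqr8, a membrane progesterone receptor gene described further on. Each line gives the 250 bases before the transcription start from RefSeq on GRCm38.p6 (mm10), 5′ to 3′ on the gene's strand, with CG dinucleotides in capitals.
Lmod1 promoter, chr1:135324563-135324812, plus strand: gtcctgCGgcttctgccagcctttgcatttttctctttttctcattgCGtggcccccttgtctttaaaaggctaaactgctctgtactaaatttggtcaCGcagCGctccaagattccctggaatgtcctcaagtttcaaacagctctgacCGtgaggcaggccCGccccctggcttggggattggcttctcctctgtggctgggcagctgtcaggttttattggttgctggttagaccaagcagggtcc
Paqr8 promoter, chr1:20890298-20890547, plus strand: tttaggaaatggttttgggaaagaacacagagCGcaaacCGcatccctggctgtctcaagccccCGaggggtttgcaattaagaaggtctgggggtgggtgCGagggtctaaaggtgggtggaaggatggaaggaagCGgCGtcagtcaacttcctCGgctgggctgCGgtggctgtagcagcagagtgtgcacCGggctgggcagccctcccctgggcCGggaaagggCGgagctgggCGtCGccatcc
The windows of Lmod1 and Paqr8 hold 6 and 13 CG dinucleotides, beside a median of 10 over 17274 promoters matched by symbol. Both windows were also covered whole in both GD5.5 lists. The hexamer AGAACA or its reverse complement TGTTCT, a half-site that steroid receptors such as Pgr can bind, occurs 1 time in the Paqr8 window and 0 times in that of Lmod1. Of all promoters 13.9% hold it at least once, against 16.7% of the 492 covered whole in P4 and at 0 in GD0.5, 15.4% of the 449 at 0 in P4 and covered whole in GD0.5, and 14.8% of those covered whole in both. The 492 were 2.85% of all promoters and the 449 were 2.60%, and 3667 were covered whole in both. The median number of CG dinucleotides was 6 in the 492 and 3 in the 449, of which 90 belong to receptor families.

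Developmental transcription factors showed the opposite difference, the largest negative one of the 21 lists by mean over whole genes. The 102 genes averaged 77.8% in P4, 85.6% in natural GD5.5, 82.2% in vasectomized GD5.5 and 86.0% in GD0.5. In P4 57 were lower, 14 higher and 31 equal, and the median difference was -2.69 points. Genes covered to at least 80% numbered 64 in P4, 82 and 69 in the natural and vasectomized GD5.5 lists, and 80 in GD0.5, with 61 in both P4 and GD0.5. At 50 points 0 were gained and 2 lost, Foxl2 and Cdx1, beside 0.402% and 0.661% of all genes. At 25 points 1 was gained and 16 lost. Over all genes 2.94% were lost at 25 points. At equal covered length the mean difference widened to -12.7 points, and within 1 kb of the start the 70 genes with a placed start averaged 73.8% in P4 and 86.2% in GD0.5. Strong peaks covered 8.36% of these genes in P4 and 12.4% in GD0.5, whereas over all genes they covered 3.26% and 2.24%.

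The leading members are regulators of organ identity. Foxl2, a forkhead factor of the ovary (chr9:98955607-98958126), was at 0% in P4, 58.9% in natural GD5.5, 19.7% in vasectomized GD5.5 and 82.0% in GD0.5. Cdx1, a caudal-type homeobox gene of the intestine, was at 39.0% in P4, 88.4% and 42.5% at GD5.5 and 92.5% in GD0.5. Irx5, an Iroquois homeobox gene, was at 40.1% in P4 and 88.6% in GD0.5, and at equal covered length P4 peaks left it altogether, with a difference of -88.6 points. Sox2, the pluripotency and neural factor gene (chr3:34649995-34652461), was at 55.2% in P4, 100% and 75.9% at GD5.5 and 100% in GD0.5, with a difference of -69.3 points at equal covered length. Others with losses of 25 points or more included Nkx6-1, at 56.2% in P4 and 100% in GD0.5, Sox9 at 57.5% and 88.9%, Foxc1 at 33.8% and 65.9%, En2 at 36.1% and 72.2%, and Wt1, a factor gene of kidney and gonad, at 5.45% and 35.8%. Sox8 ran the other way, at 100% in P4 and 68.5% in GD0.5. Emx1, Hand1, Lhx1 and Tbx1 lay whole under strong peaks in GD0.5 and under none in P4, where weaker peaks covered them.

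**Figure D3:**
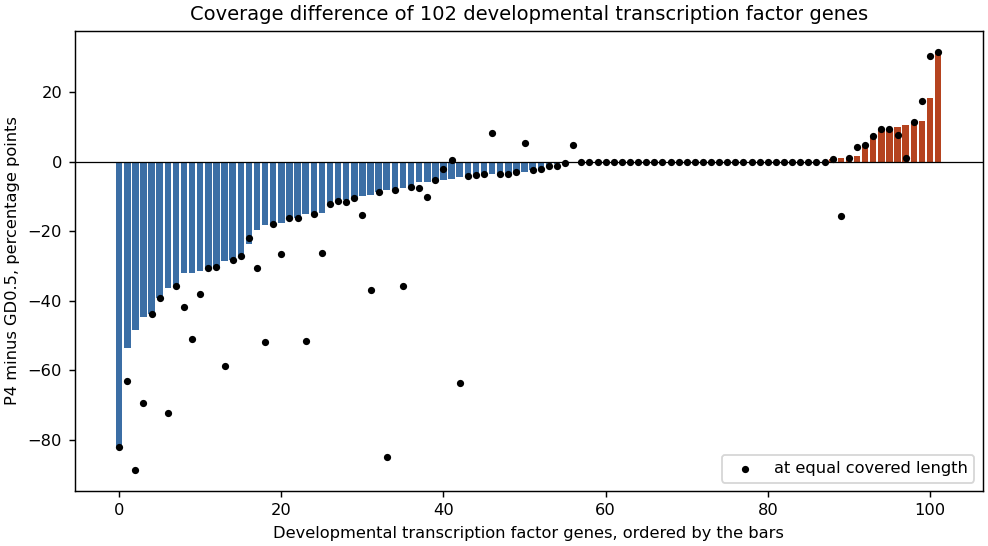
P4 minus GD0.5 coverage in percentage points for each of the 102 developmental transcription factor genes, as bars in rising order, with the same difference at equal covered length as black points. The bars fall below 0 for 57 genes and rise above it for 14, and Foxl2 at the left end reaches -82.0.

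Promoters of 3 genes lower in P4 lay wholly outside P4 peaks and wholly inside GD0.5 peaks, and are shown with the same conventions to set beside the gained ones. They are those of Foxl2 and Sox2 and of Ccl12, a chemokine gene.
Foxl2 promoter, chr9:98955357-98955606, plus strand: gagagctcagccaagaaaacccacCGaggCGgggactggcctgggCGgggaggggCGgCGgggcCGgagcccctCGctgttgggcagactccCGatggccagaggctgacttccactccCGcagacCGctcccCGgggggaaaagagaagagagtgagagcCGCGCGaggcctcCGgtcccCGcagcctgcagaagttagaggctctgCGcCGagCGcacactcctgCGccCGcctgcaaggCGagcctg
Sox2 promoter, chr3:34649745-34649994, plus strand: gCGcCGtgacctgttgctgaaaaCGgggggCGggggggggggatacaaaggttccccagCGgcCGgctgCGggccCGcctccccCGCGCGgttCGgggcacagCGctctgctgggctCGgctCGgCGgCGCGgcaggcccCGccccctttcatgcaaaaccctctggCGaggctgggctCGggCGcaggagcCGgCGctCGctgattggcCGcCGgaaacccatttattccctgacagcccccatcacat
Ccl12 promoter, chr11:82101595-82101844, plus strand: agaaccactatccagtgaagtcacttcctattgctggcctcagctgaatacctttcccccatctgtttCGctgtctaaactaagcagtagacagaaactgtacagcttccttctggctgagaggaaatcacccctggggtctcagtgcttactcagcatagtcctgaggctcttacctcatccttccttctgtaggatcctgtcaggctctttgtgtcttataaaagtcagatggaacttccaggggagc
Foxl2 and Sox2 hold 22 and 27 CG dinucleotides in these windows, far above the median of 3 in promoters of this class, and Ccl12 holds 1. None of the 3 windows has AGAACA or TGTTCT. In natural GD5.5 all 3 windows were covered whole; in vasectomized GD5.5 those of Foxl2 and Sox2 were at 0% and that of Ccl12 at 1.2%.

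Of the gained genes 8 of 87 adjoined another gained gene, and of the lost genes 53 of 143 adjoined another lost gene. Of those 53, 19 were not sensory receptor genes, and the longest run was 4 olfactory receptor genes. No background share of adjoining genes was measured, so these counts do not show whether losses cluster. The 15 largest losses of genes that, with flanks, span at least 20 kb include neighbours of the same family. Chil4 and Chil3, chitinase-like genes of alternatively activated macrophages, lie side by side on chromosome 3. Chil4 (chr3:106201491-106219479) was at 5.33% in P4, 21.6% in natural GD5.5, 35.7% in vasectomized GD5.5 and 73.3% in GD0.5, and Chil3 at 16.7% in P4, 32.7% and 44.6% at GD5.5 and 71.1% in GD0.5. The kallikrein genes Klk1b16 and Klk1b21 on chromosome 7 stood at 39.8% and 29.4% in P4, and at 97.2% and 79.2% in GD0.5. Hsd3b1 and Hsd3b6 are not among those 15 and encode enzymes that make progesterone and other steroids from their precursors. They stood at 18.8% and 39.0% in P4, and at 76.2% and 74.7% in GD0.5, and Hsd3b6 was not lost at 50 points. At equal covered length the Hsd3b1 difference was -38.1 points, short of 50. The 1 kb on either side of the Hsd3b1 start went the other way, at 57.6% in P4 and 33.7% in GD0.5. Akr1c18, whose product inactivates progesterone before birth, was at 29.96% in P4 and 61.98% in GD0.5. It too lies outside the 15 and was not lost at 50 points. The genes that follow are again of the 15. Prdm1, the repressor Blimp-1 (chr10:44437174-44528558), was at 4.08% in P4, 35.3% and 12% in the natural and vasectomized GD5.5 lists, and 74.6% in GD0.5, its difference being -47.8 points at equal covered length. Dchs1, a large cadherin of planar cell polarity, stood at 9.51% in P4 and 71.3% in GD0.5. Zfp985, Nipal1, Cdx1, Gse1, Spp2, Gpr141, Vstm2a, Ccdc105 and the corticotropin receptor gene Mc2r were the other largest losses. Klk1b21, Vstm2a, Ccdc105 and Mc2r fell short of 50 points and are not among the lost genes. The ranking took the smaller of the differences as deposited and at equal covered length. It thus left out Ebf1, at -66.6 and -42.1 points. Over the 15 losses P4 coverage ran from 4.08% to 39.8% and GD0.5 coverage from 59.5% to 97.2%. The start of Gpr141 again went against its body, at 12.4% in P4 and 0% in GD0.5.

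Chemokine and inflammatory genes averaged 57.4% in P4, 62.8% in natural GD5.5, 59.4% in vasectomized GD5.5 and 62.9% in GD0.5 over 49 genes. At 50 points 0 were gained and 3 lost, beside 0.402% and 0.661% of all genes, and at 25 points 1 was gained and 6 lost, beside 2.31% and 2.94%. The sign of the mean turned with stronger peaks, to a difference of 2.04 points by strong peaks and 4.5 points by peaks of a fold of at least 1.5. Over all genes it turned too, from -0.139 points to 1.02 and 1.19, so the turn is not particular to this list. Ccl11, or eotaxin, which draws eosinophils into the uterus, was at 0% in P4, 13.5% in natural GD5.5, 0% in vasectomized GD5.5 and 80.03% in GD0.5. Its neighbour Ccl12, a monocyte chemoattractant, was at 12.9% in P4, 33.2% and 9.54% at GD5.5 and 74.2% in GD0.5. S100a8, a calcium-binding protein of neutrophils, stood at 27.5% in P4 and 93.6% in GD0.5, but at equal covered length its difference was 12.9 points in the other direction. Cxcl15 stood at 48.8% in P4 and 90.4% in GD0.5, a difference of -19.5 points at equal covered length, where that of Ccl11 was -51.7. Ccl20, which recruits lymphocytes and dendritic cells, was the 1 member gained at 25 points, at 100% in P4 and 68.1% in GD0.5. Among immune markers Cd8a was at 100% in P4 and 66.0% in GD0.5, while Ly6g was at 0% and 24.9%.

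Receptors of the hormone differed in how much of the mark they carried. Pgr and Esr1, the progesterone and oestrogen receptor genes, lay at 0% in both, as did the stromal regulators Hand2, Hoxa10 and Hoxa11, which progesterone acts through in decidualization. Of 24 steroid receptor and co-regulator genes 14 were equal, 8 higher and 2 lower in P4, with means of 29.1% in P4 and 25.2% in GD0.5. Paqr8, the gene of membrane progesterone receptor beta (chr1:20890548-20939650), was the 1 member past 25 points, beside 2.31% of all genes gained. It was at 28.2% in P4, 18.0% in natural GD5.5, 23.4% in vasectomized GD5.5 and 0.774% in GD0.5. Fkbp5, a chaperone gene that progesterone and glucocorticoids induce, was at 48.4% in P4, 42.5% and 48.4% at GD5.5 and 28.04% in GD0.5. Nr3c2, the mineralocorticoid receptor gene, stood at 23.5% in P4 and 7.07% in GD0.5, and Pgrmc1 at 49.5% and 33.6%. Paqr5, another membrane progesterone receptor gene, was at 72.0% in P4 and 78.4% in GD0.5. At equal covered length the Fkbp5 difference was 11.4 points, down from 20.3.

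Genes known to respond to progesterone in the uterus differed in both directions, with means of 50.1% in P4 and 52.0% in GD0.5, 7 of 28 higher, 9 lower and 12 equal. Msx1, a homeobox gene of the receptive uterus, was at 56.0% in P4, 100% and 94.0% in the natural and vasectomized GD5.5 lists, and 84.4% in GD0.5. It was the 1 member lost at 25 points, beside 2.94% of all genes. Lif, the cytokine gene that implantation requires, was at 7.104% in P4, 73.4% and 26.1% at GD5.5 and 32.1% in GD0.5. Bhlhe41 stood at 58.0% in P4 and 81.8% in GD0.5, and Muc1, the epithelial mucin gene, at 23.3% and 0%. At equal covered length these differences were -38.2 points for Bhlhe41 and 10.7 for Muc1. Ihh, the epithelial signal downstream of Pgr, was covered whole in all 4 lists. Among 30 decidual genes 0 were lost and 2 gained at 25 points, beside 2.94% and 2.31% of all genes. Those were Ptgs2, cyclooxygenase-2, at 69.6% in P4 and 42.6% in GD0.5, and Cryab, at 27.9% and 0%, neither past 25 points at equal covered length. Bmp2, an inducer of decidualization, was at 0.102% in P4 and 23.7% in GD0.5, but at equal covered length the GD0.5 peaks no longer reached it, and Fst for follistatin was at 78.2% and 100%.

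Of 41 contraction and parturition genes 18 were higher, 10 lower and 13 equal in P4, with means of 32.8% in P4 and 30.6% in GD0.5; at 25 points 3 were gained (Ptgis, Ptgs2 and Ptger3) and 2 lost (Ednrb and Akr1c18), beside 2.31% and 2.94% of all genes. Within 1 kb of the start the mean difference was -7.06 points, opposite to that over whole genes. Ptgis, which makes prostacyclin, showed the largest difference, at 60.4% in P4, 57.4% and 57.8% at GD5.5 and 17.1% in GD0.5. Ptger3, a contractile prostaglandin E receptor gene, was at 42.6% in P4 and 17.6% in GD0.5, a difference of 9.9 points at equal covered length. Ednrb, an endothelin receptor gene, was at 2.26% in P4 and 35.1% in GD0.5. The oxytocin receptor gene Oxtr differed by 7.53 points, at 16.8% in P4, 38.5% and 27.8% in the natural and vasectomized GD5.5 lists, and 9.31% in GD0.5, and by -6.53 points at equal covered length. Gja1, the gap junction gene connexin 43, was at 35.2% in P4 and 51.5% in GD0.5, with a difference of -31.96 points at equal covered length, Ptgfr at 7.59% and 9.03%, and the prostaglandin transporter gene Slco2a1 at 62.2% and 68.1%. Among 60 potassium and calcium channel genes, Cacnb4 and Kcnk3 were gained at 25 points and 0 were lost, beside 2.31% and 2.94% of all genes, and Cacnb4 differed by 19.3 points at equal covered length.

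Several secreted Wnt modulators and a matrix enzyme gene were lower in P4. Rspo1, a secreted agonist of Wnt signalling, was at 23.2% in P4, 87.1% in natural GD5.5, 45.3% in vasectomized GD5.5 and 73.7% in GD0.5. Sfrp2 stood at 2.71% in P4 and 41.8% in GD0.5, and Sfrp4 at 0% and 37.1%, although at equal covered length Sfrp4 was uncovered in both. Mmp2, gelatinase A, was at 0.0498% in P4, 15.5% and 0% at GD5.5 and 44.9% in GD0.5. At equal covered length the differences were -39.05 points for Rspo1, short of 50, -25.6 for Sfrp2 and -26.1 for Mmp2. Fbln2 and Pdgfra, both fibroblast markers, stood at 3.45% and 17.7% in P4, and at 35.8% and 38.8% in GD0.5. The Wnt and matrix lists as a whole differed little: 68 Wnt, BMP, FGF and hedgehog genes averaged 51.8% in P4 and 55.1% in GD0.5, and 42 matrix genes 21.2% and 23.4%, a difference of 1.09 points the other way at equal covered length. At 25 points 0 were gained in either list and 3 and 2 lost, beside 2.31% and 2.94% of all genes. At equal covered length 2 matrix genes were gained at 50 points and 0 lost. Timp1 was 1 of these, at 100% in P4 and 14.3% in GD0.5 at that length, against 100% and 81.7% by all peaks.

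Among the HoxB genes named here the direction changed along the cluster. Over 39 Hox genes of all clusters the means were 50.2% in P4 and 49.4% in GD0.5, with a difference of -4.74 points at equal covered length. Of the 39, 15 were higher, 10 lower and 14 equal in P4. On chromosome 11 Hoxb4 was the 1 gained at 50 points, beside 0.402% of all genes. It was at 58.4% in P4 and 7.03% in GD0.5, though it differed by 28.2 points at equal covered length. Hoxb3 and Hoxb5 were also higher in P4, at 50.3% and 62.6%, against 26.1% and 48.0% in GD0.5. Hoxb7, Hoxb8 and Hoxb9, further along the same cluster, were lower, at 41.1%, 46.9% and 68.2% in P4, against 71.7%, 85.4% and 100% in GD0.5. Within 1 kb of its start Hoxb8 went the other way, at 95.05% in P4 and 81.96% in GD0.5. Hoxc12 on chromosome 15 was at 40.1% in P4, 87.6% and 57.6% at GD5.5 and 87.5% in GD0.5. The enzymes of the mark differed little: Ezh2 was at 0% in both, Kdm6a at 0% in P4 and 0.0894% in GD0.5, and Kdm6b at 3.45% and 0%. Cbx8, a reader subunit of Polycomb repressive complex 1, was at 78.1% in P4, 49.5% and 61.6% at GD5.5 and 32.3% in GD0.5.

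**Figure D4:**
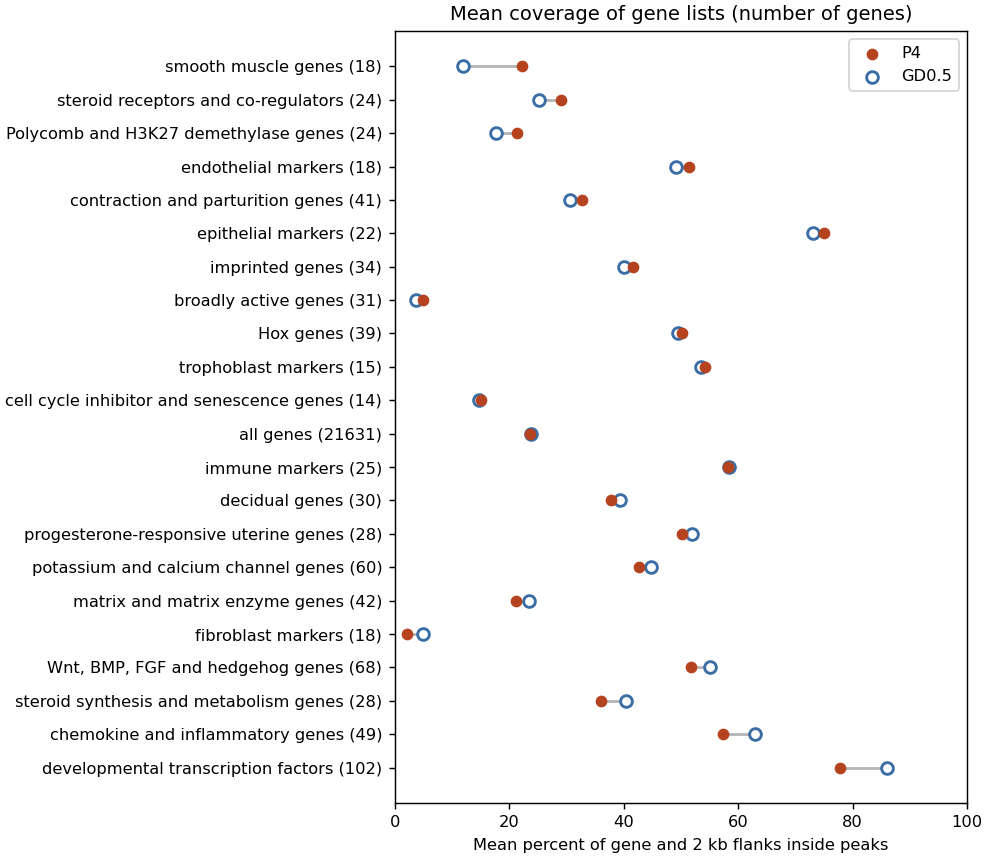
Mean percent of the gene and its flanks inside peaks for each of the 21 gene lists and for all genes, with P4 as filled and GD0.5 as open circles and the number of genes in brackets. Smooth muscle genes, at 22.3% in P4 and 11.99% in GD0.5, lie at the top, and developmental transcription factors, at 77.8% and 86.0%, at the bottom.

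Runs of adjoining gained bins formed 2264 domains, of which 48 were at least 50 kb long, and runs of lost bins formed 2687, of which 27 were. The longest gained domain covered 100 kb of Mical2 and its start (chr7:112220001-112320000), at 75.1% in P4, 18.6% in natural GD5.5, 30.5% in vasectomized GD5.5 and 0% in GD0.5. The 18 P4 peaks in it reached a fold of at most 1.18. A 90-kb domain reached from beyond Adtrp, a hydrolase gene, into its body, at 77.8% in P4 and 6.4% in GD0.5, which at equal covered length came to 42.8% and 1.70%. Pdlim5, whose product ties signalling proteins to actin filaments, held an 80-kb domain at 89.6% in P4, 63.4% and 81.2% at GD5.5 and 3.9% in GD0.5. Counting ties at 60 kb, 16 gained domains were the longest, and 10 of them overlapped genes: those 3, Mgat4a, Sipa1l2, Thsd4, Lekr1, Adamtsl3, Tln2 and Myo1d. Mical2, Pdlim5, Tln2 for talin 2 and Myo1d for a class I myosin encode proteins that bind actin. They were picked out by eye, and the share of such genes among all genes or in the lost domains was not measured.

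The longest lost domain covered 220 kb of Gse1 (chr8:120330001-120550000), at 11.1% in P4, 59.1% in natural GD5.5, 12.3% in vasectomized GD5.5 and 82.5% in GD0.5. Ebf1 overlapped 2 lost domains; it is an early B cell factor gene that stromal and fat precursor cells also use. The 140-kb one (chr11:44710001-44850000) had 0 peaks in P4 and 26 in GD0.5, at 0% in P4, 9.1% and 1.5% at GD5.5 and 78.8% in GD0.5. The 100-kb one holds the Ebf1 start, at 7.1% in P4 and 88.8% in GD0.5. A 90-kb domain in Robo1, the axon guidance receptor gene, likewise had 0 peaks in P4 and 22 in GD0.5, at 69.8% in GD0.5 but 37.8% at equal covered length. A 60-kb domain overlapped Sall1, a zinc finger factor gene of kidney and limb, at 8.7% in P4, 58.0% and 15.9% at GD5.5 and 76.7% in GD0.5, and a 60-kb domain next to it in rank reached into Cdh5, the VE-cadherin gene, at 9.2% and 76.0%. Ptprn2 and Frmpd2 held the other 2 lost domains of 60 kb or more that overlapped genes. The highest GD0.5 fold within the 13 longest lost domains was 1.29, in Ptprn2.

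**Figure D5:**
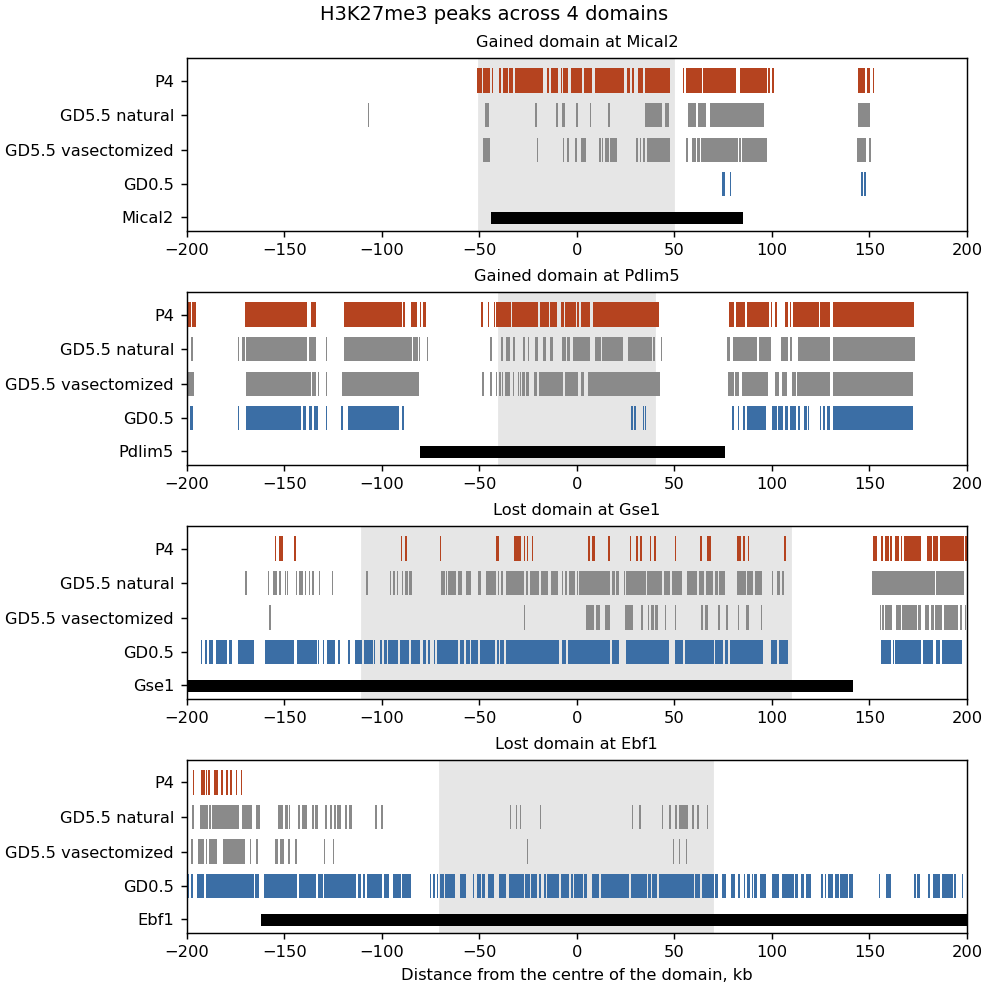
Peaks (bars) in P4, both GD5.5 lists and GD0.5, from top to bottom in each panel, across 200 kb on either side of the centre of a gained domain in Mical2 and in Pdlim5 and of a lost domain in Gse1 and in Ebf1; grey shading marks the domain and the black bar the gene. In the Mical2 domain GD0.5 has no peak, and in the Ebf1 domain P4 has none.

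Sensory receptor families were lower in P4 through weak peaks. The 1110 olfactory receptor genes averaged 20.1% in P4, 22.6% in natural GD5.5, 24.8% in vasectomized GD5.5 and 27.04% in GD0.5, with 1 gained and 60 lost at 50 points, beside 0.402% and 0.661% of all genes, and 645 at 0 in both. The lost genes lay on 14 chromosomes, with 21 on chromosome 7 and 18 on chromosome 9, where the 130 olfactory receptor genes averaged 10.0% in P4 and 24.8% in GD0.5. Type 1 vomeronasal receptor genes averaged 10.8% in P4 and 16.5% in GD0.5, with 6 of 230 lost, and bitter taste receptor genes 6.22% and 14.8%, with 3 of 35 lost. Small proline-rich and late cornified envelope genes of the skin barrier averaged 20.4% in P4 and 37.5% in GD0.5, with 2 of 35 lost, all beside the same 0.661%. At equal covered length the olfactory difference was -3.82 points, the vomeronasal one -4.43 and the taste receptor one -0.32. By strong peaks alone the olfactory genes were slightly higher in P4, at 1.27% in P4 and 0.777% in GD0.5, and the vomeronasal genes by 0.457 points. Both differences were smaller than the 1.02 points over all genes. Copies within these families, and among the Chil, Klk1b and Hsd3b genes, are alike in sequence, and how reads that fit several copies were placed is not stated, so values of single members are uncertain. Ribosomal protein genes, in contrast, averaged 5.35% in P4 and 4.65% in GD0.5.

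Strong peaks gave a picture of their own. By coverage with strong peaks 230 genes were gained (1.06%) and 40 lost (0.185%). The q cutoff was looser in P4, so these counts are not at like strength and no direction is read from them. By all peaks the 230 averaged 89.5% in P4 and 85.8% in GD0.5, and 223 of them were at least 50% covered in GD0.5. The 40 lost genes averaged 90.9% in P4 and 92.5% in GD0.5 by all peaks. Listed genes among the strong gains were Ptger2, a relaxant prostaglandin E receptor gene, and Adra1d, an adrenergic receptor gene, both of the contraction list, the osteopontin gene Spp1, Tnf, Mmp13, Wnt8b, Epcam, Cd4 and Pcgf1. Wnt16, Cd3d and Cyp1b1 joined the 4 transcription factors among the strong losses.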

How the data were processed

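H3K27me3 CUT&RUN peaks of B6CBAF1/J uterine fibroblasts were analysed as deposited. The submitters' processing notes name STAR 2.7.5c, samtools 1.10, bedtools 2.29.1, bedGraphToBigWig 2.8, macs2 2.2.7.1 and the build mm10, without the settings. Each deposited list pools 3 samples and gives every peak a fold ratio against its background, with p and q each as −log10. No source used here gives read depth or peak-calling settings, so precision cannot be stated, and a list from more reads can hold more weak peaks.

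Peaks were merged, and coverage was computed with numpy 2.4.6 and pandas 2.3.3 over 21631 protein-coding genes (RefSeq, GRCm38.p6, chromosomes 1 to 19 and X, with 2 kb flanks) and 263121 bins of 10 kb, after a check of the arithmetic on simulated intervals. Of 741 list entries 730 matched a symbol. Gained and lost mean differences of at least 50 points, P4 minus GD0.5. Alternatives were equal covered length (544.4 Mb, 80% of the shortest list), a −log10 q of at least 2, a fold of at least 1.5, 5-kb flanks, 25 points, autosomes alone, 1 kb around the start, and bins of 5 and 50 kb. Starts are those of the RefSeq promoter table, for some genes an inner transcript's start. Named were the 15 largest gains and losses among genes of 20 kb or more with flanks, ranked by the smaller of the differences as deposited and at equal length, leaving out olfactory, vomeronasal, Gm-number and Rik symbols; in every list the 4 most different members; 16 genes of progesterone action and parturition; and genes in the 10 longest domains each way, ties kept. Further list members and the strong-peak genes were picked with their values in view. One of the 15 gains is not reported here. The members and lists were chosen with earlier results of these data known. With 1 list a side no test was made, and input libraries and the lists of the Kdm6b mice were not used here.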

Additional observations from a re-analysis of the deposited data

How the results depend on the processing

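Covered length in P4 over GD0.5 was 0.966 with all peaks and 0.957 on the autosomes, but 1.76 with a −log10 q of at least 2, 1.55 with a fold of at least 1.5 and 1.02 on the X. The share of P4 peaks that overlap a GD0.5 peak came to 61.8% when 50% of the peak had to be covered. Genes gained numbered 87; they came to 165 at equal covered length, 230 by q, 271 by fold, 57 with 5-kb flanks, 499 at 25 points and 395 around the start. Genes lost numbered 143; they came to 40 by q, 56 by fold, 85 with 5-kb flanks, 635 at 25 points and 383 around the start, and 196 at equal covered length. Bins gained came to 6073 at equal covered length, 1719 by q, 2643 by fold, 11766 at 25 points, and 10129 and 183 in bins of 5 and 50 kb. Bins lost came to 5827 at equal covered length, 173 by q, 473 by fold, 15722 at 25 points, and 12104 and 175 in bins of 5 and 50 kb. Fewer peaks enter by q and by fold, the q cutoff fell at unlike strengths in the lists, and smaller windows pass 50 points more often. Beyond that the cause was not tested. Of 36 named genes past 50 points, 29 stayed past them at equal covered length, 6 fell short and S100a8 reversed (12.9). The ranking of the 15 gains and 15 losses used the equal-length difference, so this tally was in part fixed by the choice of genes. Of all called genes, 63 of 87 gained and 63 of 143 lost stayed past 50 points at equal covered length, and 1 and 5 reversed. Of the called bins, 2162 of 3294 gained and 1637 of 3641 lost stayed past 50 points. Around the start Gpr141 (12.4) and Hsd3b1 (23.9) reversed. The mean difference kept its sign in 16 of 21 lists at equal covered length, 8 by q, 10 by fold and 20 with 5-kb flanks. Leaving out a replicate was not possible, because the 3 samples of each group were pooled before peaks were called. No paired analysis was possible because each group has 1 pooled list. Depth is unknown, so whether a weak peak of one list is absent from the other or was not detected cannot be told.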
